A study of Mus musculus with 3 samples.

Results

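Chemokines are small secreted proteins that steer migrating leukocytes, and 8 chemokine ligand genes were followed here across bone marrow cells. They were the CC ligands Ccl3, Ccl4, Ccl5, Ccl6 and Ccl9 and the CXC ligands Cxcl2, Cxcl10 and Cxcl12. Each was taken as the row of the count tables that carries its symbol, and all 8 were found once among 32285 genes. The libraries were made from lineage-depleted marrow of mice with 1 library for each genotype. The Lztr1 knockout library came from Lztr1fl/fl;Mx1Cre+ mice, the Rit1-M90I library from Rit1M90I/+;Mx1Cre+ mice and the Cre-negative control library from Rit1M90I/+ mice without Mx1-Cre.

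All 3 groups were 8 weeks old when they received 3 doses of pIpC at 12 mg/kg, a double-stranded RNA mimic that raises interferon and so turns on the interferon-responsive Mx1 promoter driving Cre. The marrow was taken 4 weeks later, and Mx1-Cre is known to act in blood-forming cells and in some other cells, stroma included. The control carried the Rit1 allele without Cre, so an effect of Cre itself and an effect of the gene change cannot be told apart. The Lztr1 knockout label names floxed Lztr1 and no Rit1 allele. In that comparison an effect of mouse line cannot be told apart either. The labels do not say whether a library held 1 mouse or several. The sort kept live cells negative for the lineage antigens CD3 (T cells), CD11b and Gr1 (myeloid cells), B220 (B cells) and Ter119 (red cells), which removes most mature blood cells.

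A chemokine binds to receptors on the cell that moves, and a receptor often accepts several ligands. CCL3, CCL5, CCL6 and CCL9 act on CCR1. CXCL10 draws activated T and NK cells through CXCR3 and is a textbook interferon-induced gene, CXCL2 draws neutrophils through CXCR2, and CXCL12 from marrow stroma holds stem cells and B cell precursors in their niche through CXCR4. CCL3 and CCL4 are also known as MIP-1alpha and MIP-1beta, and CCL6 and CCL9 are rodent chemokines made by myeloid cells.

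After filtering, the Lztr1 knockout library had 2338 cells and 27617480 UMIs (distinct mRNA tags), the Rit1-M90I library 9367 cells and 79770991 UMIs, and the control library 7273 cells and 62419416 UMIs. The median cell held 9922.5, 6590 and 6861 UMIs in the same order, so a Lztr1 knockout cell was read more deeply. Lztr1 itself stood at 6.34 CPM in the library labelled Lztr1 knockout, at 15.2 CPM in Rit1-M90I and at 17.3 CPM in the control; a 3' tag does not check the deletion as such. Levels are in CPM, the UMIs of a gene among all UMIs of the cells summed, scaled to a common total. With 1 library a genotype no value has a replicate, no test of genotype was possible, and the 95% intervals cover counting error only. A gene was called past 1.5-fold when log2 of (mutant CPM + 10) over (control CPM + 10) reached that size, among genes at 20 CPM or more in either library. Shared barcodes between libraries numbered 5 to 19. Populations were gated from marker genes, and each is a set of cells like the named type. Genes held back from gating that mark the same type were at least 2-fold higher in the gated cells for 3 of 3 such genes in the basophil and mast, neutrophil progenitor, monocyte, NK and stroma gates, 4 of 4 in the T gate, 2 of 4 in the stem and multipotent gate and 1 of 3 in the lymphoid progenitor gate, whose label is therefore weak.

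Over all kept cells, Ccl5 was lower in both mutant libraries and Cxcl12 was higher in the Lztr1 knockout, while the other members at 20 CPM or more lay closer to the control. Ccl5 stood at 80.0 CPM in Lztr1 knockout cells and 144 CPM in Rit1-M90I cells, against 299.65 CPM in the control. Cxcl12 stood at 30.3 CPM in Lztr1 knockout cells and 18.4 CPM in Rit1-M90I cells, against 8.19 CPM in the control. Of 6 members at 20 CPM or more in the Lztr1 knockout comparison, 1 was higher (Cxcl12, log2 ratio 1.15) and 1 was lower (Ccl5, log2 ratio -1.78). Over all 6081 genes compared there, 0.263% were higher and 0.395% were lower by the same rule. Of 5 members measured in the Rit1-M90I comparison, none was higher and 1 was lower (Ccl5, ratio 0.482), against 0.333% and 0.233% of 6011 genes. Both comparisons use the same control library. The median log2 ratio of the measured members was -0.21 in the Lztr1 knockout, where all genes had 0.02, and -0.07 in Rit1-M90I, where all genes had -0.05.

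Ccl9 differed little over all cells, at 142 CPM in the Lztr1 knockout, 143 CPM in Rit1-M90I and 124 CPM in the control. Ccl3 was at 52.7, 61.8 and 65.4 CPM and Ccl4 at 19.7, 23.9 and 22.9 CPM in the same order of libraries. Ccl6 was at 50.2 CPM in Lztr1 knockout cells and 74.1 CPM in Rit1-M90I cells, against 78.3 CPM in the control. Its log2 ratio in the Lztr1 knockout was -0.55, just short of the 1.5-fold rule. That value was -0.63 with a pseudocount of 1 CPM, which passes the rule, and 0.05 when only cells of 2000 UMIs, 1000 genes and at most 5% mitochondrial UMIs were kept. Cxcl2 (chr5:90903871-90905938, mm10, plus strand) was all but absent, with 0 UMIs in the Lztr1 knockout, 1 in Rit1-M90I and 0 in the control.

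**Figure D1:**
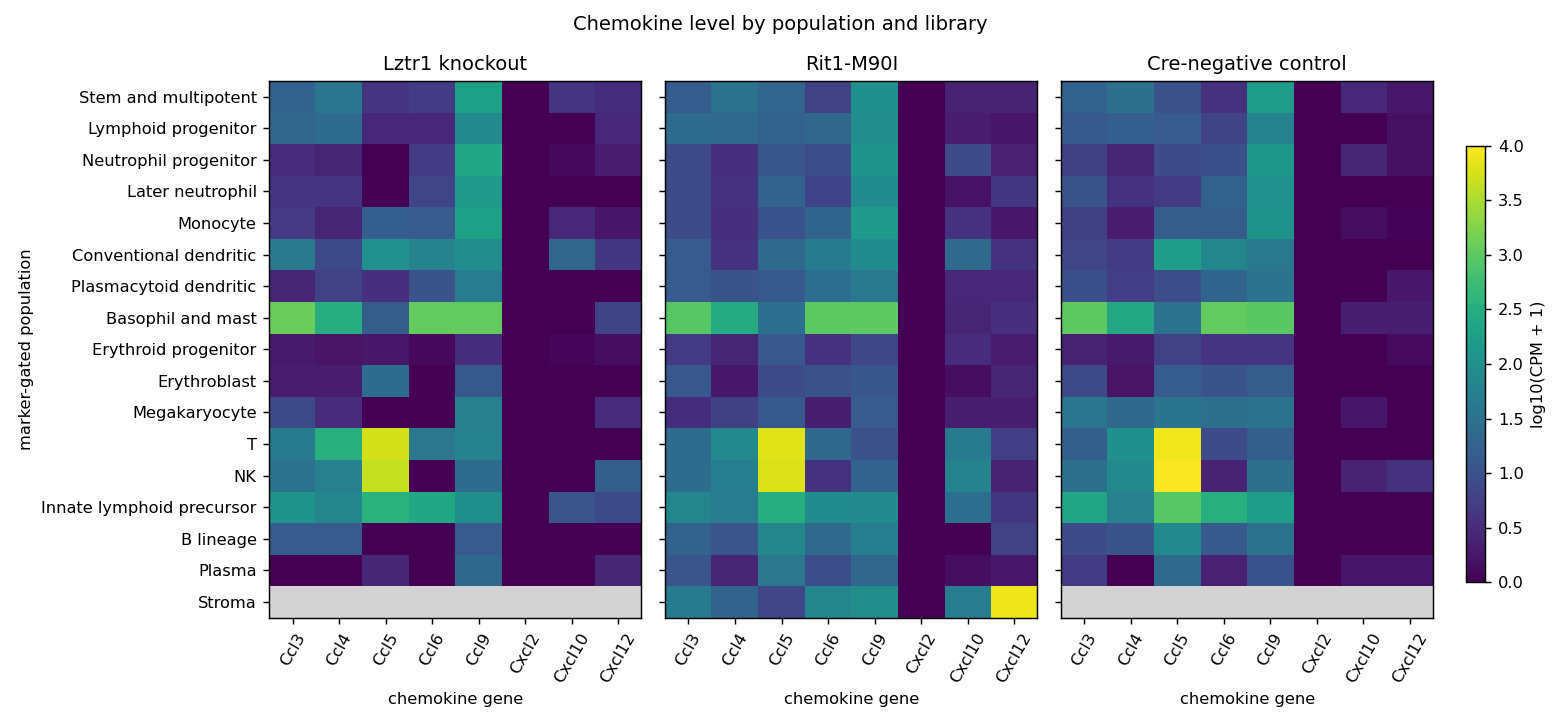
Level of each chemokine gene (columns) in each marker-gated population (rows) for the 3 libraries, as log10 of CPM plus 1. Populations under 20 cells in a library are grey. Ccl3, Ccl6 and Ccl9 peak in the basophil and mast row, as does Ccl4 except in the Lztr1 knockout, where the T row is at 332 CPM and the basophil and mast row at 304 CPM. That T value rests mostly on a single cell with 50 Ccl4 UMIs. Ccl5 peaks in the T and NK rows and Cxcl12 in the stroma row, which is drawn for Rit1-M90I alone, and Ccl9 is also seen across myeloid and stem rows.

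The members Ccl3, Ccl4, Ccl6 and Ccl9 were carried above all by cells of the basophil and mast gate. Basophils are rare granulocytes of allergic and antiparasite responses, and mast cells are their tissue counterparts. Ccl3 reached 1200 CPM (1135 to 1268) in Lztr1 knockout cells and 900.1 CPM (872 to 929) in Rit1-M90I cells, against 1002 CPM (968 to 1036) in control cells. Ccl6 levels were 1106 CPM (1043 to 1171) in Lztr1 knockout cells, 996 CPM (966 to 1026) in Rit1-M90I cells and 1109 CPM (1074 to 1145) in control cells. Ccl9 levels were 1086 CPM (1024 to 1151), 1012 CPM (983 to 1043) and 952 CPM (919 to 986) in the same order. Ccl4 was lower than the other members in these cells, at 304 CPM in Lztr1 knockout cells, 289 CPM in Rit1-M90I cells and 259.7 CPM in control cells. Of these 4 genes, none differed by 1.5-fold from the control in either mutant library; the lowest ratio was 0.898, of Ccl6 in Rit1-M90I, and the highest was Ccl3 in the Lztr1 knockout, with an interval of 1.12 to 1.28. The gate held 266, 1345 and 1009 cells, and 1.72% of genes in the Lztr1 knockout comparison and 0.523% in the Rit1-M90I comparison were past 1.5-fold either way within it. Ccl5 was the 1 member called lower there in the Lztr1 knockout, with 15 UMIs (14.3 CPM, 12 of them in 1 cell), against 100 UMIs (29.7 CPM) in the control.

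The gate is a small share of the RNA but holds most of 3 of these genes. It made up 3.81% of UMIs in the Lztr1 knockout, 5.45% in Rit1-M90I and 5.40% in the control. It held 86.7% of Ccl3 UMIs in the Lztr1 knockout, 79.4% in Rit1-M90I and 82.7% in the control. For Ccl6 it held 83.9%, 73.2% and 76.5%, and for Ccl4 58.7%, 66.0% and 61.1%, in the same order. For Ccl9 it held only 29.0%, 38.7% and 41.5%. If the gate had the control's share of UMIs in the Lztr1 knockout, Ccl6 over all cells would have been 67.6 CPM there, against the 50.2 CPM measured and the 78.3 CPM of the control. Fewer cells of a type and less RNA per cell enter such a library total in the same way.

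Within the gate most cells held Ccl3. A Ccl3 UMI was found in 88.7% of gated Lztr1 knockout cells, 78.2% of Rit1-M90I cells and 78.6% of control cells. Thinned to 2000 UMIs a cell, these shares were 80.3%, 66.0% and 62.2%. Erythroid progenitors, which served as the type that should lack the gene, had a Ccl3 UMI in 1.73%, 5.21% and 1.66% of cells at median depths of 19307.5, 14251 and 16675 UMIs, where the basophil gate had 3156.5, 2673 and 2585. For Ccl9 the thinned shares in the basophil gate were 61.8%, 59.0% and 52.4%, for Ccl6 42.1%, 33.5% and 31.4%, and for Ccl4 30.9%, 29.3% and 26.8%. The Lztr1 knockout had the highest share for each of the 4 genes. Left out of the thinned shares were 33, 343 and 290 shallower cells of the gate. These came mostly from the chemokine-rich cluster described below, of which 130 of 162, 421 of 740 and 254 of 536 cells were kept. Within that cluster the thinned Ccl3 shares were 95.4%, 92.6% and 96.1% and the Ccl4 shares 46.2%, 51.8% and 53.9%. There the Lztr1 knockout was highest for Ccl9 alone, at 80%, 78.6% and 78.3%. In the other cluster the Lztr1 knockout was highest for Ccl3 and Ccl6.

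A cell with 1 of these ligands more often had another. Of thinned Lztr1 knockout cells of the gate, 36.4% of those with Ccl3 also had Ccl4, against 8.70% of those without Ccl3. In Rit1-M90I these shares were 39.3% and 9.97%, and in the control 39.6% and 5.88%. Ccl6 was found in 48.7% of Ccl3-positive and 15.2% of Ccl3-negative cells of the Lztr1 knockout, in 43.3% and 14.7% of those of Rit1-M90I and in 44.7% and 9.56% of those of the control. All 4 genes were seen in 16.7% of thinned Lztr1 knockout cells, 9.48% of Rit1-M90I cells and 8.90% of control cells. None of them was seen in 11.2%, 15.3% and 21.0%. These shares pool the clusters described next, which differ in all 4 genes. Thinning kept a different part of the chemokine-rich cluster in each library. The part of that mix in the pairing and in the library differences was not tested.

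The pooled clustering, from which the 8 members were kept out, split the basophil gate into a pair of clusters that differ in proliferation genes. In the one with more of them, Mki67, a proliferation marker, was at 467 CPM in the Lztr1 knockout, 367 CPM in Rit1-M90I and 343 CPM in the control, and Mcpt8, a basophil protease, at 31456, 22439 and 23445 CPM. In the other, Mki67 was at 33.0, 48.2 and 32.5 CPM and Mcpt8 at 11070, 7294 and 6538 CPM, while Il4, the cytokine basophils release, was at 165, 136 and 156 CPM, against 77.4, 62.3 and 66.2 CPM in the first. All 4 chemokines were higher in the cluster with few proliferation genes, in every library. Ccl6 was at 2511 CPM there in the Lztr1 knockout, 2405 CPM in Rit1-M90I and 3140 CPM in the control, against 177, 171 and 176 CPM in the more proliferative cluster. Ccl9 was at 2132, 2030 and 2291 CPM, against 389, 426 and 349 CPM.

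As a fold, Ccl3 showed the smallest gap between the clusters in each library, at 2101 CPM in the Lztr1 knockout, 1667 CPM in Rit1-M90I and 2197 CPM in the control, against 680 CPM, 469.8 CPM and 499 CPM. Ccl4 was at 617, 634 and 695 CPM, against 105, 90.7 and 60.7 CPM. The clusters held 162 and 95 Lztr1 knockout cells, 740 and 577 Rit1-M90I cells and 536 and 440 control cells of the gate, and cells of the chemokine-rich cluster were shallower, with medians of 2399.5, 2085 and 1960.5 UMIs, against 5467, 4285 and 4395. In thinned cells Ccl6 was still seen in 62.3%, 59.1% and 64.2% of the chemokine-rich cluster, against 18.1%, 15.4% and 14.5% of the other. Within the chemokine-rich cluster the Ccl6 interval of control cells was 3035 to 3247 CPM. The intervals of Lztr1 knockout cells (2362 to 2666 CPM) and Rit1-M90I cells (2330 to 2482 CPM) were both below it. In Rit1-M90I Ccl3 (1605 to 1732 CPM) and Ccl9 (1961 to 2101 CPM) were also below the control (2110 to 2288 and 2202 to 2383 CPM). The Ccl4 intervals, and those of Ccl3 and Ccl9 in the Lztr1 knockout, overlapped the control's. How many of all genes had intervals apart from the control's in this cluster was not counted. The intervals are therefore not read as a result particular to the chemokines. Ccl9 was thus highest in the control here, while over the whole gate it was lowest there. These clusters were made from the same cells, so their differences are given as description.

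**Figure D2:**
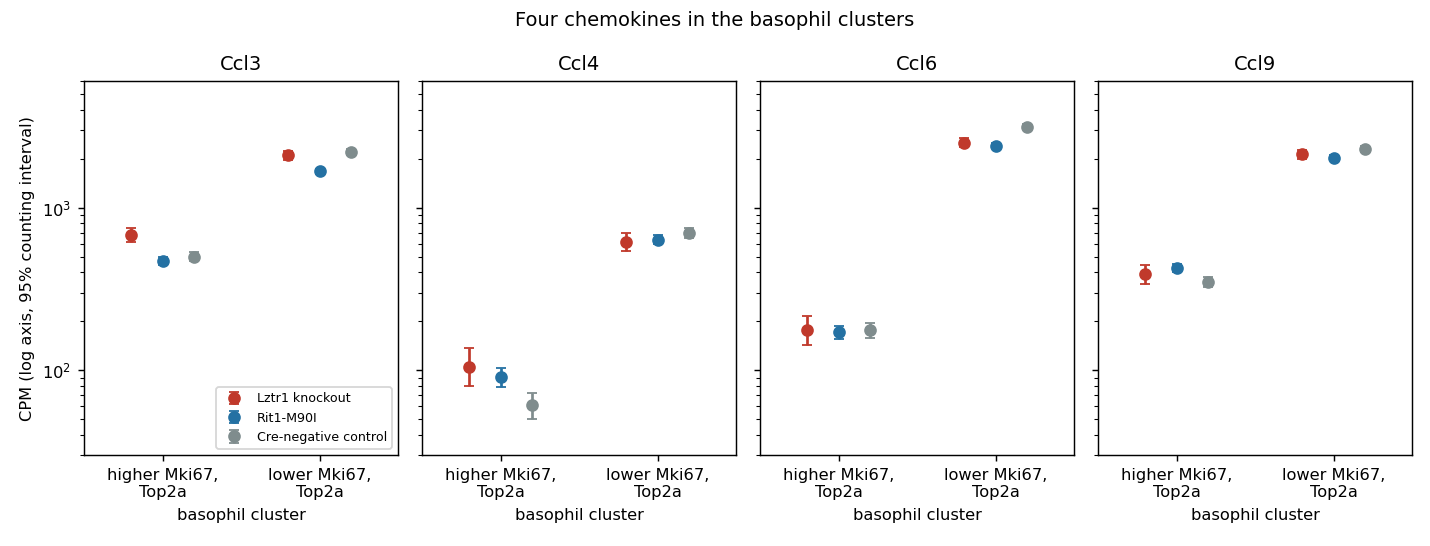
CPM of Ccl3, Ccl4, Ccl6 and Ccl9 on a log axis in the basophil cluster with more and the one with less Mki67 and Top2a, for the 3 libraries, with 95% counting intervals. Each gene is higher in the cluster with less Mki67 in all 3 libraries, most for Ccl6 (2511, 2405 and 3140 CPM there in the Lztr1 knockout, Rit1-M90I and control).

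The 5 CC members lie together on mouse chromosome 11 (mm10), between 83525778 and 83664683, in the order Ccl5, Ccl9, Ccl6, Ccl3 and Ccl4, a stretch of 138.9 kb. Ccl3 is at chr11:83647844-83649355, Ccl6 at chr11:83587882-83593087 and Ccl9 at chr11:83572919-83578636, all protein-coding genes on the minus strand. Since Ccl3, Ccl6 and Ccl9 were high in the same cells, the 250 bases before the RefSeq start of each (GRCm38.p6, gene strand, at chr11:83649379-83649628, chr11:83593088-83593337 and chr11:83578637-83578886) are shown. Capitals mark matches to the AP-1 motif (TGANTCA, searched on both strands), the TATA box motif (TATAAA, gene strand) or the kappaB motif (both strands). The motif of GATA factors (AGATAA) and that of the interferon response (GAAA, NN and GAAA in a row) were also searched, on both strands. A match describes the letters and is not a site.
Ccl3: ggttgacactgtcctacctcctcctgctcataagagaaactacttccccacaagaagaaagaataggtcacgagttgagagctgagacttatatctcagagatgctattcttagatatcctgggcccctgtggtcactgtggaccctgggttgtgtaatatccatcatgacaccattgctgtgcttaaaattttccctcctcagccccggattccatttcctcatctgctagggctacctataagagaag
Ccl6: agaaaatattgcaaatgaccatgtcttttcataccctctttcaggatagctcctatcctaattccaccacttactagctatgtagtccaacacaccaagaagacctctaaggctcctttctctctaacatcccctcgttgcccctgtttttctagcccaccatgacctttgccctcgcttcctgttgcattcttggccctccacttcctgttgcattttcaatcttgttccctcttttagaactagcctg
Ccl9: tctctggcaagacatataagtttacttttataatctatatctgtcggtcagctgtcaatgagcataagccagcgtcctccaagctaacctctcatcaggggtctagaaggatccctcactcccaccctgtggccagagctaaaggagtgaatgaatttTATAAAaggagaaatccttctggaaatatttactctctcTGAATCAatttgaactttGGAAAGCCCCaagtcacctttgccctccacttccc
The Ccl3 and Ccl6 windows held no match to any of the 5 motifs. The Ccl9 window held 1 match each to TATAAA, AP-1 and kappaB. Of 32841 promoter windows of this length, 7.59% held TATAAA, 6.75% the AP-1 letters, 3.90% the kappaB motif, 9.99% AGATAA and 2.98% the interferon response letters. The table had windows for 6 of the 8 members and none for Ccl4 and Ccl5.

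Ccl9 was the member with the widest reach, and it was higher in the myeloid progenitors of the Lztr1 knockout. In the neutrophil progenitor gate it stood at 219.9 CPM (206 to 234) in Lztr1 knockout cells and 116 CPM (111 to 121) in Rit1-M90I cells, against 132 CPM (125 to 139) in the control. Monocyte gate levels were 189.7 CPM (176 to 204) in Lztr1 knockout cells, 146 CPM (140.2 to 152) in Rit1-M90I cells and 113 CPM (107 to 120.2) in control cells. The Lztr1 knockout ratio was 1.67 (1.54 to 1.81) in neutrophil progenitors and 1.68 (1.52 to 1.84) in monocytes, so Ccl9 was past 1.5-fold there, where 0.397% and 0.137% of genes were higher by that rule. The Rit1-M90I ratios were 0.882 (0.823 to 0.946) and 1.29 (log2 ratio 0.34), both within 1.5-fold, where 0.56% and 0.418% of genes were past it either way. The Lztr1 knockout values passed 1.5-fold with pooled clusters in place of gates as well (log2 ratio 0.62 in both).

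The share of cells with Ccl9 was also higher in the Lztr1 knockout. A Ccl9 UMI was found in 94.5% of Lztr1 knockout neutrophil progenitors, 64.4% of those of Rit1-M90I and 71.5% of those of the control. The cells differed in depth, with medians of 17346, 13359 and 12323 UMIs, and at 2000 UMIs the shares were 33.1%, 20.3% and 21.0%. In monocytes the thinned shares were 27.8%, 24.1% and 17.7%. Erythroid progenitors had Ccl9 at 2.35, 6.20 and 3.06 CPM, so the Lztr1 knockout library had the lowest Ccl9 in these cells and the highest in neutrophil progenitors.

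In the stem and multipotent gate Ccl9 was at 189.9 CPM in Lztr1 knockout cells and 100.2 CPM in Rit1-M90I cells, against 159 CPM in the control. The Rit1-M90I ratio was 0.630 (0.543 to 0.729), past 1.5-fold, where 0.183% of genes were lower, and the Lztr1 knockout ratio was 1.19 (1.02 to 1.39), where 2.38% were past 1.5-fold either way. The Rit1-M90I log2 ratio of -0.62 was -0.32 with pooled clusters and -0.50 with called doublets kept, neither past 1.5-fold, and -0.87 with a stricter gate. In lymphoid progenitors Ccl9 was at 81.2 CPM in Lztr1 knockout cells and 88.9 CPM in Rit1-M90I cells, against 56.4 CPM in the control, with ratios of 1.44 (1.15 to 1.79) and 1.58 (1.33 to 1.87). Their log2 ratios of 0.46 and 0.57 did not reach the 1.5-fold rule, which is set on the log2 (CPM + 10) scale. In conventional dendritic cells Ccl9 was at 83.0 CPM (57 UMIs) in Rit1-M90I, against 39.5 CPM (20 UMIs) in the control (log2 ratio 0.91), in a gate where 5.7% of genes were higher. With pooled clusters that log2 ratio was 0.09. Of 4 members measured in the Rit1-M90I comparison of this gate, 2 were higher, Ccl9 and Cxcl10, and 1 was lower. The lower member was Ccl5, at 166 CPM in the control, in a gate where 6.64% of genes were lower.

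**Figure D3:**
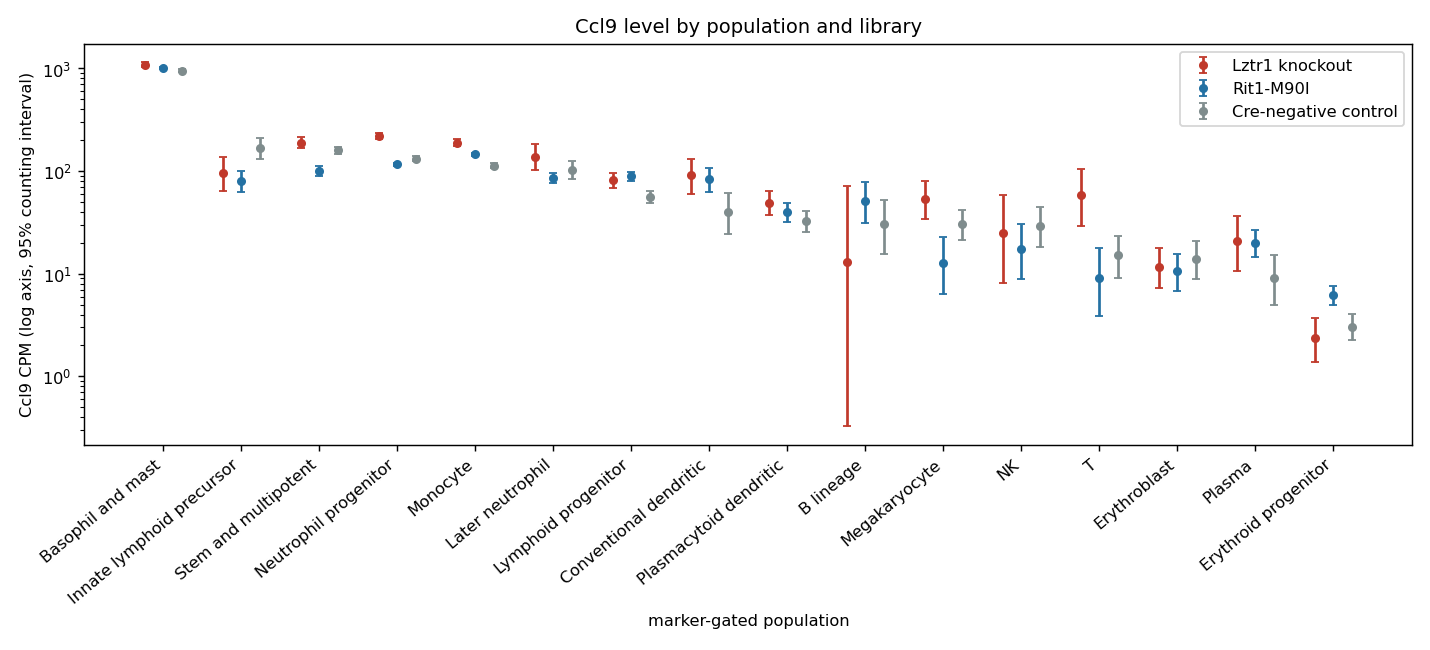
Ccl9 CPM on a log axis in each marker-gated population with at least 20 cells in a library, ordered by the control, with 95% counting intervals. The basophil and mast gate is highest in all libraries (1086, 1012 and 952 CPM in the Lztr1 knockout, Rit1-M90I and control), and the Lztr1 knockout lies above the control in neutrophil progenitors and monocytes.

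Ccl4 (chr11:83662584-83664683, plus strand), a close relative of Ccl3, was next highest in T, NK and innate lymphoid precursor cells, at 111, 62.4 and 53.0 CPM over the 3 libraries pooled, and was also found in stem and multipotent cells at 31.3 CPM. In the stem and multipotent gate it stood at 36.4 CPM in Lztr1 knockout cells and 31.5 CPM in Rit1-M90I cells, against 29.3 CPM in the control, while Ccl3 was at 17.8, 13.4 and 16.8 CPM. So Ccl4 exceeded Ccl3 there in every library, where in the basophil gate Ccl3 exceeded Ccl4. These are UMI counts of 3' tags, which do not scale with transcript length. A Ccl4 UMI was found in 20.7%, 13.8% and 15.6% of stem and multipotent cells, and in 0.990%, 2.28% and 0.729% of erythroid progenitors. After thinning, the stem and multipotent shares were 6.67%, 6.59% and 5.28%. The Lztr1 knockout ratio was 1.24 (0.863 to 1.77) and the Rit1-M90I ratio 1.08 (0.800 to 1.45), and both intervals include 1, so no difference was detectable at this depth.

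In lymphoid progenitors Ccl4 was at 24.3 CPM in Lztr1 knockout cells and 23.4 CPM in Rit1-M90I cells, against 14.4 CPM in the control, with log2 ratios of 0.49 and 0.45, not past 1.5-fold; 0.985% of genes were past it either way in the Lztr1 knockout. Ccl3 was at 23.9 CPM in Rit1-M90I lymphoid progenitors, against 12.3 CPM in the control (log2 ratio 0.60), a gate where 0.547% of genes were higher by the rule. With pooled clusters that log2 ratio was 0.16, and with a stricter gate 0.39, neither past 1.5-fold. Ccl3 was also higher in Rit1-M90I in erythroid progenitors, which should lack it, at 3.86 CPM against 1.41 CPM in the control (ratio 2.74, 1.65 to 4.69), and in monocytes at 7.41 CPM against 4.76 CPM. T cells also carried Ccl4, at 77.5 CPM in Rit1-M90I and 102 CPM in the control. The 332 CPM of the Lztr1 knockout T gate rested on 1 cell with 50 of its 62 UMIs. In that gate of 50 cells, 4 of 5 measured members and 12.8% of all genes were higher. With the top cell of each library left out, the log2 ratio there was -0.35 in place of 1.60.

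Ccl5 was found mostly in T and NK cells, and both the share of these cells and the level in them were lower in the mutant libraries. Ccl5 (chr11:83525778-83530518, minus strand), also called RANTES, is stored and released by cytotoxic T and NK cells. In the T gate it stood at 5521 CPM (5189 to 5869) in Lztr1 knockout cells and 6447 CPM (6281 to 6616) in Rit1-M90I cells, against 8204 CPM (8046 to 8363) in the control. The ratios were 0.673 (0.631 to 0.718) and 0.786 (0.761 to 0.812), neither past the 1.5-fold rule, where 11.4% and 2.45% of genes were lower. In the NK gate it stood at 4507 CPM in 48 Lztr1 knockout cells and 6185 CPM in Rit1-M90I, against 9579 CPM in the control. The Rit1-M90I ratio in NK cells was 0.646 (0.621 to 0.671), past 1.5-fold in a gate where 5.48% of genes were lower by the rule, and no ratio was taken for the 48 Lztr1 knockout cells.

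T and NK cells together were 4.19% of cells in the Lztr1 knockout, 5.35% in Rit1-M90I and 10.2% in the control, and 1.40%, 1.98% and 3.16% of UMIs. They held 87.3%, 86.8% and 91.9% of Ccl5 UMIs. With the control's share of T and NK UMIs and each library's own levels, Ccl5 over all cells would have been 168 CPM in Lztr1 knockout cells and 219 CPM in Rit1-M90I cells, against 299.65 CPM in the control. Surface CD3 was among the sort's antibodies, so the number of T cells left also depends on the sort of each sample, and its part in the result was not tested. The Il2rb mRNA of these cells, a cytokine receptor chain of NK and cytotoxic T cells, was at 13.5 CPM over all Lztr1 knockout cells and 21.8 CPM over Rit1-M90I cells, against 34.6 CPM in the control.

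More of the T cells left in the sort had a Cd8a than a Cd4 UMI. Cells with a Cd8a and no Cd4 UMI were 13, 54 and 93 in the Lztr1 knockout, Rit1-M90I and control, and cells with a Cd4 and no Cd8a UMI were 2, 1 and 4. A Ccl5 UMI was in all 13 of the Lztr1 knockout Cd8a cells, in 98.1% of those of Rit1-M90I and in 97.8% of those of the control, at 5553, 6111 and 9483 CPM. The Cd4 cells held 0 Ccl5 UMIs in each library. Among the other T cells, with neither UMI, Ccl5 was at 5766, 6546 and 8068 CPM, so the order of libraries was the same in both groups. In erythroid progenitors a Ccl5 UMI was in 1.49% of Lztr1 knockout cells, 9.33% of Rit1-M90I cells and 4.47% of control cells. These cells should lack the gene, and the most in a single one was 19 UMIs in Rit1-M90I and 18 UMIs in the control.

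**Figure D4:**
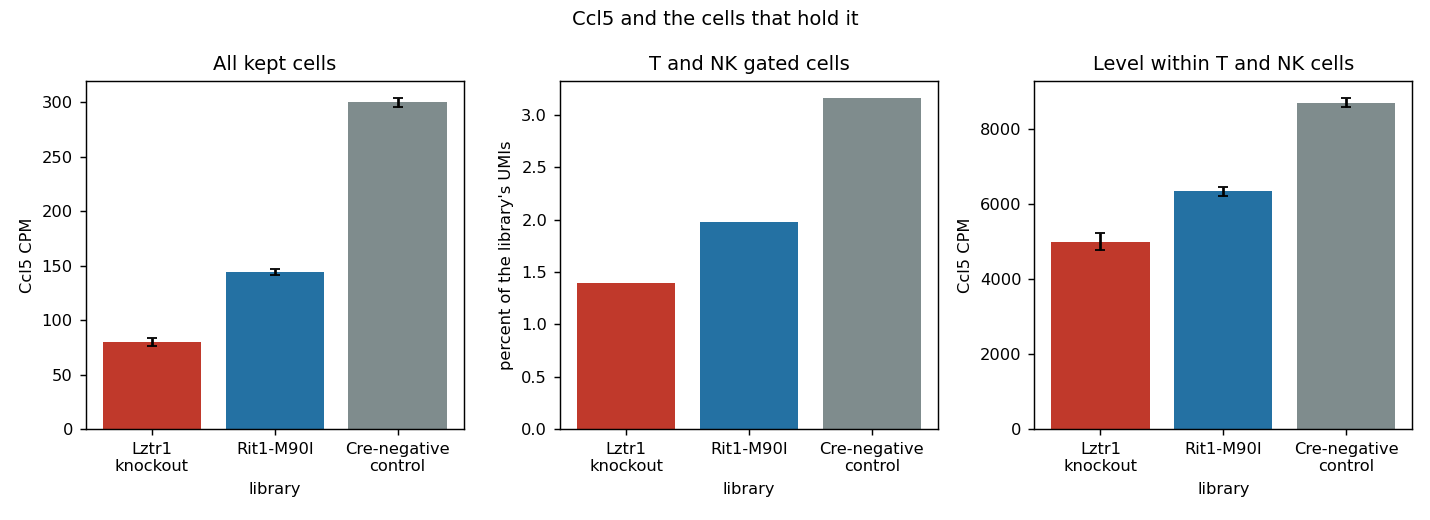
Ccl5 CPM over all kept cells, the share of each library's UMIs in T and NK gated cells, and Ccl5 CPM within those cells, by library, with bars from 0 and 95% counting intervals on the CPM values. Both the share (1.40%, 1.98% and 3.16%) and the level within the cells are lowest in the Lztr1 knockout, then Rit1-M90I, then the control.

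Cxcl12 (chr6:117168535-117181367, plus strand) was made almost wholly by a handful of stromal cells. The stroma gate had 19 cells in the Lztr1 knockout, 41 in Rit1-M90I and 16 in the control, 0.813%, 0.438% and 0.22% of cells. It held 801, 1341 and 484 Cxcl12 UMIs, which is 95.8%, 91.6% and 94.7% of all. A UMI was found in 18 of 19, 38 of 41 and 13 of 16 of these cells. The Rit1-M90I level was 7960 CPM, and no level was taken for the smaller gates. The cells also held Lepr, the leptin receptor that marks the perivascular stroma which supports stem cells, with 90 UMIs in the Lztr1 knockout, 224 in Rit1-M90I and 69 in the control, and Kitl, the ligand of KIT, with 99, 165 and 46 UMIs.

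Outside the stroma gate Cxcl12 was scarce, with 1.02 CPM or less in erythroid progenitors of each library. Cxcl12 over all cells and the stroma share of cells had the same order of libraries, on 19, 41 and 16 cells. Both were highest in the Lztr1 knockout and lowest in the control. The stroma gate made up 0.399% of Lztr1 knockout UMIs, 0.211% of Rit1-M90I UMIs and 0.130% of control UMIs. Given the control's share and their own stroma level, Lztr1 knockout cells would have had 10.7 CPM of Cxcl12, not the 30.3 CPM measured. Rit1-M90I cells would have had 11.9 CPM, not 18.4 CPM, where the control had 8.19 CPM. The gates of 19 and 16 cells are under the 20 cells set for a level, so these values are rough. Why the share differed was not tested. In Rit1-M90I the measured log2 ratio of Cxcl12 over all cells was 0.64, but neither library reached 20 CPM.

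Cxcl10 was nearly silent in all libraries except for single cells of Rit1-M90I. It had 23 UMIs in the Lztr1 knockout (0.833 CPM), 386 in Rit1-M90I (4.84 CPM) and 35 in the control (0.561 CPM). In Rit1-M90I 116 of the UMIs came from 1 cell of the neutrophil progenitor gate, and 12 cells with 5 or more UMIs held 78.0%. These 12 cells fell in several gates. The Lztr1 knockout had 2 cells with 5 or more UMIs and the control 1. In Rit1-M90I Cxcl10 was past 1.5-fold higher in NK cells at 60.9 CPM (42 UMIs), T cells at 42.7 CPM (38 UMIs), innate lymphoid precursors at 26.5 CPM (23 UMIs) and conventional dendritic cells at 23.3 CPM (16 UMIs), where the control had 1, 0, 0 and 0 UMIs. In these gates 6.74%, 1.66%, 6.06% and 5.7% of genes were higher. These values rest on single cells: 2 NK cells held 38 of the 42 UMIs, 2 T cells 34 of the 38, 2 innate lymphoid precursor cells 16 of the 23 and 1 dendritic cell 15 of the 16. The 13 interferon-stimulated genes in the tables summed to 3070 CPM in the 12 Rit1-M90I cells, against 279 CPM in Rit1-M90I cells without Cxcl10, and at 2364 CPM in the 2 Lztr1 knockout cells, against 346 CPM in cells of that library without Cxcl10. Among the 12 cells, a dendritic cell at 525 CPM (2 UMIs of these genes) and an innate lymphoid precursor cell at 337 CPM (3 UMIs) were far below the others. The one control cell was at 1206 CPM, against 356 CPM in control cells without Cxcl10.

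Over whole libraries the interferon-stimulated genes summed to 352 CPM in Lztr1 knockout cells and 283 CPM in Rit1-M90I cells, against 356 CPM in the control. So the Rit1-M90I library had the most Cxcl10 and the lowest sum of these genes. Of 3 genes of that list at 20 CPM or more, none passed 1.5-fold in the Lztr1 knockout, and 1 was lower in Rit1-M90I, Ifi27, at 45.04 CPM against 76.9 CPM in the control. The Cxcl10 gene lies at chr5:92346638-92348889 (mm10, minus strand), and the 250 bases before its RefSeq start, at chr5:92348890-92349139 (GRCm38.p6, gene strand), are shown because most cells with 5 or more Cxcl10 UMIs also had more mRNA of interferon-stimulated genes. Capitals mark, from 5′ to 3′, the interferon response letters, a kappaB match, a second kappaB match, the AP-1 letters and AGATAA.
Cxcl10: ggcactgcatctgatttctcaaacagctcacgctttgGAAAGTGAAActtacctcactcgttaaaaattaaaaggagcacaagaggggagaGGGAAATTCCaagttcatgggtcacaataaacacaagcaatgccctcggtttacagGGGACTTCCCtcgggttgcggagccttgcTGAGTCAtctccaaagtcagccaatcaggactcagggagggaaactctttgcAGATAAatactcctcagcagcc
The window held 1 match to the interferon response letters, which 2.98% of all windows hold, and 2 matches to the kappaB motif, which 3.90% hold. The Cxcl2 window held the kappaB motif too, read on both strands of the same bases, beside a gene with 1 UMI in all.

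**Figure D5:**
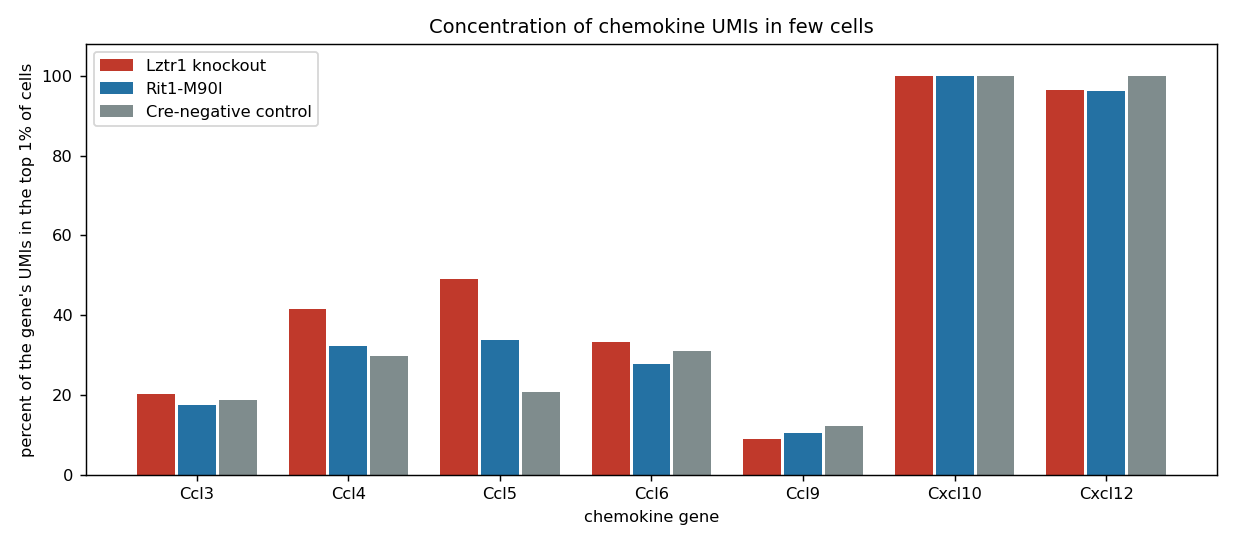
Percent of each gene's UMIs held by the 1% of cells with the most of them, by library; Cxcl2 is left out. Ccl9 is the most spread (8.90%, 10.5% and 12.3% in the Lztr1 knockout, Rit1-M90I and control), and Cxcl10 and Cxcl12 sit in the top 1% of cells almost wholly.

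The members thus differed widely in how few cells held them. The 1% of cells richest in a gene held 8.90% of Ccl9 UMIs in the Lztr1 knockout, 10.5% in Rit1-M90I and 12.3% in the control. For Ccl3 they held 20.2%, 17.6% and 18.9%, for Ccl6 33.3%, 27.8% and 31.1%, and for Ccl4 41.7%, 32.2% and 29.8%. For Ccl5 the share was 49.1% of Lztr1 knockout UMIs, 33.8% of Rit1-M90I UMIs and 20.7% of control UMIs, the library with the largest share of T and NK cells.

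Receptors for these ligands were measured in the same cells. Pooled over the 3 libraries, Ccr1, the receptor of several members, was highest in the basophil and mast gate, at 314 CPM, against 19.8 CPM over all cells. Cxcr2 was highest there too, at 207 CPM, as was Cxcr4, the CXCL12 receptor, at 181 CPM against 64.8 CPM over all cells. Cxcr3, the CXCL10 receptor, was highest in T cells at 169 CPM and NK cells at 159 CPM. The gate highest in Ccl3, Ccl6 and Ccl9 was thus also the highest in Ccr1, which was not measured in its clusters apart. Of 23 receptor genes, 3 were at 20 CPM or more in the Lztr1 knockout comparison and 4 in the Rit1-M90I comparison, and none of these passed 1.5-fold. Ccr2, the receptor that lets monocytes leave marrow, was at 91.8 CPM in Lztr1 knockout cells and 109.7 CPM in Rit1-M90I cells, against 83.4 CPM in the control.

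Other genes of the pathway gave few calls over all cells. Of 23 other chemokine ligands in the tables, 2 were at 20 CPM or more in each comparison. Pf4, the platelet chemokine, was at 68.6 CPM in Lztr1 knockout cells and 57.0 CPM in Rit1-M90I cells, against 93.8 CPM in the control, and only the Rit1-M90I value passed (log2 ratio -0.63). The megakaryocyte gate, where Pf4 was highest, was 1.63% of cells in the Lztr1 knockout, 1.19% in Rit1-M90I and 2.14% in the control. The part of that share was not tested. Of 4 NF-kB target and inflammatory genes measured, none passed in either library, and the largest log2 ratio was that of Tnfaip2, at 156 CPM in the Lztr1 knockout, against 104 CPM in the control (log2 ratio 0.55). Over the 3 libraries pooled, Tnfaip2 was highest in erythroblasts (360 CPM) and erythroid progenitors (336 CPM). These gates were 4.70% and 17.3% of Lztr1 knockout cells, against 1.59% and 13.2% of control cells. The part of these shares was not tested. Of 4 cytotoxic lymphocyte genes measured, 2 were lower in the Lztr1 knockout, Il2rb (log2 ratio -0.92) and Gzma, which codes for granzyme A (log2 ratio -0.64), beside 0.395% of all genes, and none passed in Rit1-M90I. The T and NK gates, where these genes sit, held 1.40% of UMIs in the Lztr1 knockout and 3.16% in the control, and the part of that share was not tested. Of 3 marrow niche factors measured in the Lztr1 knockout comparison, 1 was higher, Cxcl12 itself, and of 2 in the Rit1-M90I comparison none passed. In the Lztr1 knockout the median log2 ratio was -0.53 for the cytotoxic genes and -0.02 for the receptors, beside 0.02 over all genes. In Rit1-M90I it was -0.33 and 0.03, beside -0.05 over all genes.

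Genes whose level followed a member most closely were sought over 48 profiles, 16 populations in each of 3 libraries. The points share libraries and cell types, so the correlations only describe. Ccl3 was followed by Lilr4b (Pearson r 0.94), Csf1 (0.94) and Gpr34 (0.94), of which Csf1 codes for the macrophage growth factor M-CSF. Ccl6 was followed by Igfbp7 (0.93), Ccr1 (0.92) and Cdh1 (0.91), and Ccl4 by Cd200r4 (0.92), Neurl3 (0.90) and Prkacb (0.90). Ccl9 was followed by Cebpa (0.94), the transcription factor of granulocyte and monocyte precursors, Hk2 (0.91) and Fgd4 (0.90). Ccl5 was followed by Il2rb (0.97), Txk (0.97) and Sh2d2a (0.97), all known from T and NK cells. Cxcl10 had no close follower, with Sulf2 (0.62) first, then Ckb (0.58) and Id2 (0.54). Among the members, Ccl3 and Ccl6 were closest (0.90), followed by Ccl3 and Ccl4 (0.83), while Ccl9 and Ccl5 ran apart (-0.18).

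Small gates gave values that changed with how cells were gated. In the innate lymphoid precursor gate, of 71, 216 and 122 cells, Ccl3 was at 116 CPM in Lztr1 knockout cells and 64.6 CPM in Rit1-M90I cells, against 227 CPM in the control, and Ccl6 at 239 and 86.5 CPM, against 335 CPM. In that gate 3 of 5 measured Lztr1 knockout values and 4 of 6 Rit1-M90I values were lower, where 11% and 6.24% of genes were lower. The clusters of the same name had 206 Rit1-M90I and 85 control cells with Ccl3 at 9.77 CPM and 4.64 CPM. In the megakaryocyte gate all 5 measured members were lower in Rit1-M90I, where 2.54% of genes were lower, on 1 to 11 UMIs a member against 27 to 47 in the control. Of the control UMIs, 29 of 38 for Ccl6 and 31 of 44 for Ccl5 lay in 1 cell.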

How the data were processed

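Gene counts in single cells of sorted marrow were analysed as deposited. Per the submitters' processing notes and the labels' protocols, the authors made droplet 3' libraries and counted UMIs per gene and barcode with Cell Ranger 6.1.1 on mm10; the notes also name Seurat 4.1.0, and the deposited tables hold raw whole-number counts. Barcodes with at least 1000 UMIs, 500 genes and at most 10% mitochondrial UMIs were kept, and called doublets (scrublet, run per library in scanpy 1.11.5) were removed. Cells were gated by marker genes (score of at least 1 SD, 3 or more markers detected). Leiden clusters of the pooled cells (2000 variable genes without the members, 30 components, 15 neighbours, resolution 1) served as an alternative. UMIs were summed per library and population. CPM intervals are exact Poisson and ratio intervals exact conditional; a count of 0 allows up to 3 counts. Log2 ratios used CPM plus a pseudocount of 10. Levels needed 20 cells and ratios 50 cells a library, and shares of positive cells were also taken after thinning to 2000 UMIs. Pathway genes named for their level over all cells were at 20 CPM or more in a library compared. Cxcr2, Cxcr3, Xcl1, Ackr4, Kitl and Lepr were below that and were named for the population that held them. Similar genes were the 3 with the highest correlation. The members and lists were chosen with earlier results of these data known. Ratio and call steps were tested on simulated counts. Gene positions are from GENCODE and promoters from RefSeq. Python 3.11.15, scipy 1.17.1 and leidenalg 0.10.2 were used. Alternative filters, gates, pseudocounts and scaling were tried. The result of 1 receptor gene is not reported here.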

Additional observations from a re-analysis of the deposited data

Results flagged for a closer look

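Ccl3 and Ccl9 had log2 ratios past 1.5-fold in opposite directions in different populations of the same library, and these differences between populations were not tested. Ccl9 in the Lztr1 knockout was higher than in the control in neutrophil progenitors (log2 ratio 0.70) and monocytes (0.70) and lower in the innate lymphoid precursor gate (-0.74). Ccl9 in Rit1-M90I was lower in the stem and multipotent gate (-0.62) and the innate lymphoid precursor gate (-0.98) and higher in conventional dendritic cells (0.91). Ccl3 in Rit1-M90I was higher in lymphoid progenitors (0.60) and lower in the innate lymphoid precursor gate (-1.67). With clusters in place of gates the innate lymphoid precursor values changed sign, to 0.44 for Ccl9 in the Lztr1 knockout, 1.01 for Ccl9 in Rit1-M90I and 0.43 for Ccl3 in Rit1-M90I. By clusters the Rit1-M90I values for Ccl9 were -0.32 in the stem and multipotent cells and 0.09 in conventional dendritic cells, and that for Ccl3 in lymphoid progenitors was 0.16, none past 1.5-fold.

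Signal was also found in barcodes outside the kept cells. Cxcl12 stood at 47.6 CPM (85 UMIs) in the 84 Lztr1 knockout barcodes called doublets, against 0.553 CPM in control doublets. In barcodes under the cell filter Cxcl12 ran the other way, at 16.1 CPM (16 UMIs) in the Lztr1 knockout and 26.9 CPM (68 UMIs) in Rit1-M90I, against 46.6 CPM (70 UMIs) in the control. Cxcl10 stood at 23.4 CPM (17.8 to 30.2, 59 UMIs) in the 1756 Rit1-M90I barcodes under the cell filter, against 0 in the 953 such control barcodes, which allows up to 2.45 CPM.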

How the results depend on the processing

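Over all cells, the count of members past 1.5-fold in the Lztr1 knockout was 2. It was 2 or 3 under the stricter cell filter, with every barcode or doublets kept, with a pseudocount of 1 CPM and with median-of-ratios scaling, and 1 with the top 1% of cells left out, where Cxcl12 was lost by construction, since those cells hold 96.5% of its Lztr1 knockout UMIs and 100% of its control UMIs. The Rit1-M90I count was 1 under each of these. Under the stricter cell filter the Lztr1 knockout log2 ratio was 0.05 for Ccl6 and 0.06 for Ccl3, in place of -0.55 and -0.27, and -1.55 for Ccl5.

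Of 29 population ratios, 5 changed sign with clusters in place of gates: in innate lymphoid precursors Ccl3 (0.43), Ccl6 (0.26) and Ccl9 (1.01) in Rit1-M90I and Ccl9 (0.44) in the Lztr1 knockout, and Ccl6 in Rit1-M90I T cells (-0.21). The stricter gate turned Ccl6 in Rit1-M90I T cells (-0.20) and Ccl5 in Rit1-M90I megakaryocytes (0.086). Leaving out the top cell turned Ccl4 (-0.35) and Ccl6 (-0.0073) in Lztr1 knockout T cells and Ccl5 in Rit1-M90I megakaryocytes (0.030). The cause was not tested. For 4 alternative fits too few cells were left. No paired analysis was possible because each genotype has 1 library, and no replicate could be left out.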

Other observations

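Genes to either side of the CC members on chromosome 11 also differed between libraries. Of 17 genes measured within 500 kb, members included, AA465934, a processed transcript at chr11:83291699-83294632 and 234 kb from Ccl5, stood at 90.0 CPM in Lztr1 knockout cells and 3.06 CPM in Rit1-M90I cells, against 2.61 CPM in the control. Wfdc21 reached 20 CPM in Rit1-M90I alone. It stood at 7.02 CPM in Lztr1 knockout cells and 54.7 CPM in Rit1-M90I cells, against 19.9 CPM in the control. It is a gene of later neutrophils (595 CPM in that gate, against 17.4 CPM elsewhere), which were 0.941% of cells in the Lztr1 knockout, 3.02% in Rit1-M90I and 1.26% in the control, and the part of that share was not tested. Taf15, an RNA-binding protein gene in the same window, was at 74.3, 70.7 and 71.1 CPM in the same order. AA465934 and Wfdc21 were chosen after its values were seen.

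Other ligands and some receptors had homes of their own, given here over the 3 libraries pooled. Xcl1, the ligand of XCR1 on dendritic cells, was highest in NK cells at 621 CPM and T cells at 480 CPM. Pf4 was highest in megakaryocytes at 4211 CPM, Ccr2 in conventional dendritic cells at 504 CPM and the scavenging receptor Ackr4 in stroma at 236 CPM.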
